A study of Mus musculus with 9 samples.

Results

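The genes described here encode enzymes and proteins of sterol synthesis, uptake and storage. They were chosen by symbol from knowledge of the pathway, with earlier results of these data known. All 32 had a row among the 12204 genes of the deposited table and entered the tests. By role they divide into 8 genes of the mevalonate steps, 11 of the steps that lead from farnesyl units through squalene to cholesterol, 7 that control the transcription factor SREBP, and 6 of uptake, transport and storage. Bone marrow of C57/Bl6J mice was cultured for 6 days with 20% supernatant of L929 cells, which secrete macrophage growth factor, and the resulting macrophages made up all 3 groups. The LPS + BMS group was pretreated for 1 h with 50 µM BMS 303141, an inhibitor of ATP-citrate lyase called BMS from here on, and LPS followed for 4 h at 10 ng/ml. The LPS group received the same LPS treatment without the inhibitor, and the remaining group was untreated. LPS, from the outer membrane of Gram-negative bacteria, is sensed through Toll-like receptor 4. Each group had 3 libraries, and the labels do not say whether they came from separate mice or cultures, so that the spread between them may be technical. There was no group with the inhibitor alone, and no vehicle is named.

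Cells build cholesterol from acetyl-CoA. Acetyl-CoA units are joined to HMG-CoA, which is reduced to mevalonate, turned into isoprenoid units and condensed to squalene, and squalene is closed into lanosterol and trimmed to cholesterol. ATP-citrate lyase, the target of BMS, supplies the cytosolic acetyl-CoA for this pathway. When sterols in the endoplasmic reticulum run low, SCAP carries SREBP to the Golgi, where 2 proteases release the part that enters the nucleus and raises transcription of the synthesis genes. INSIG proteins hold SCAP back when sterols are plentiful. Macrophages also take up lipoproteins, hydrolyse their cholesteryl esters in lysosomes, export the cholesterol and store it again as ester in lipid droplets.

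Promoter sequences of 25 of the 32 genes were found in RefSeq (GRCm38.p6), in 33 windows since some genes have several starts. The 250 bases before each start were searched on both strands for TCACNCCAC, a form of the sterol regulatory element to which SREBP binds, and for CCAAT, the box bound by NF-Y, a known partner of SREBP. CCAAT was present in 22 of the 33 windows (66.7%), against 33.8% of all 32851 windows in the table. Counted by gene it was found in 21 of the 25 members (84.0%), against 40.4% of the 8165 genes of the expression table with a window. TCACNCCAC was found in 1 member, Hmgcs1 (4.00%), against 1.20% of those 8165 genes. All 9 genes of the squalene to cholesterol steps with a window held CCAAT, as did 5 of 6 mevalonate genes, 4 of 7 SREBP control genes and all 3 uptake and storage genes. A match is a string of letters and not a shown binding site, and other spellings of the sterol element were not searched.

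Below, 4 of these windows are shown, 5′ to 3′ on the strand of the gene, with CCAAT or its reverse complement ATTGG and, in Hmgcs1, the sterol element in capitals. Hmgcs1 and Acat2 were higher in LPS libraries than in untreated ones, Hmgcs1 holding both motifs and Acat2 neither, and they are shown with Msmo1 and Lipa, which were lower with LPS and hold 3 CCAAT boxes and 1. The sterol match of Hmgcs1 shares no base with its CCAAT boxes. The windows lie at chr13:119690101-119690350 (plus strand), chr17:12960726-12960975 (minus), chr8:64733579-64733828 (minus) and chr19:34527475-34527724 (minus) in GRCm38.
Hmgcs1: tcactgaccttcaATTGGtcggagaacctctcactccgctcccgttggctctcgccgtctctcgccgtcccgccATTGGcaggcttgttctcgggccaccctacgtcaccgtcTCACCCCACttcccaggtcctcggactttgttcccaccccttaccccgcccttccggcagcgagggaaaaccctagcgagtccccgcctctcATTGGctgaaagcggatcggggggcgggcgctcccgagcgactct
Acat2: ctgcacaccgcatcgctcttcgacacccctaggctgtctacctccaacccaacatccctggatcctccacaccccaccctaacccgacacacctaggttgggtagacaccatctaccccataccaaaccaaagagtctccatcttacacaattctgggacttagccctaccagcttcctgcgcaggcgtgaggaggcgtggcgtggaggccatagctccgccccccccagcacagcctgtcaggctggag
Msmo1: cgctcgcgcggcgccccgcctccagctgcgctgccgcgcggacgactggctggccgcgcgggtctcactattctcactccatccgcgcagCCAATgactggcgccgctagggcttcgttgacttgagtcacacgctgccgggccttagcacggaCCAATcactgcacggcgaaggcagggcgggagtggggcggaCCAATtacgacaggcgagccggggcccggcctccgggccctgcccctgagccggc
Lipa: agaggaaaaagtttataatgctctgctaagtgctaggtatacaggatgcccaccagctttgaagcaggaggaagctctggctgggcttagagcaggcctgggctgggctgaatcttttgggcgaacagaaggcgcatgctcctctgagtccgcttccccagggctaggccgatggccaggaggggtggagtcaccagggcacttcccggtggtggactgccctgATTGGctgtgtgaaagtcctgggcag

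**Figure D1:**
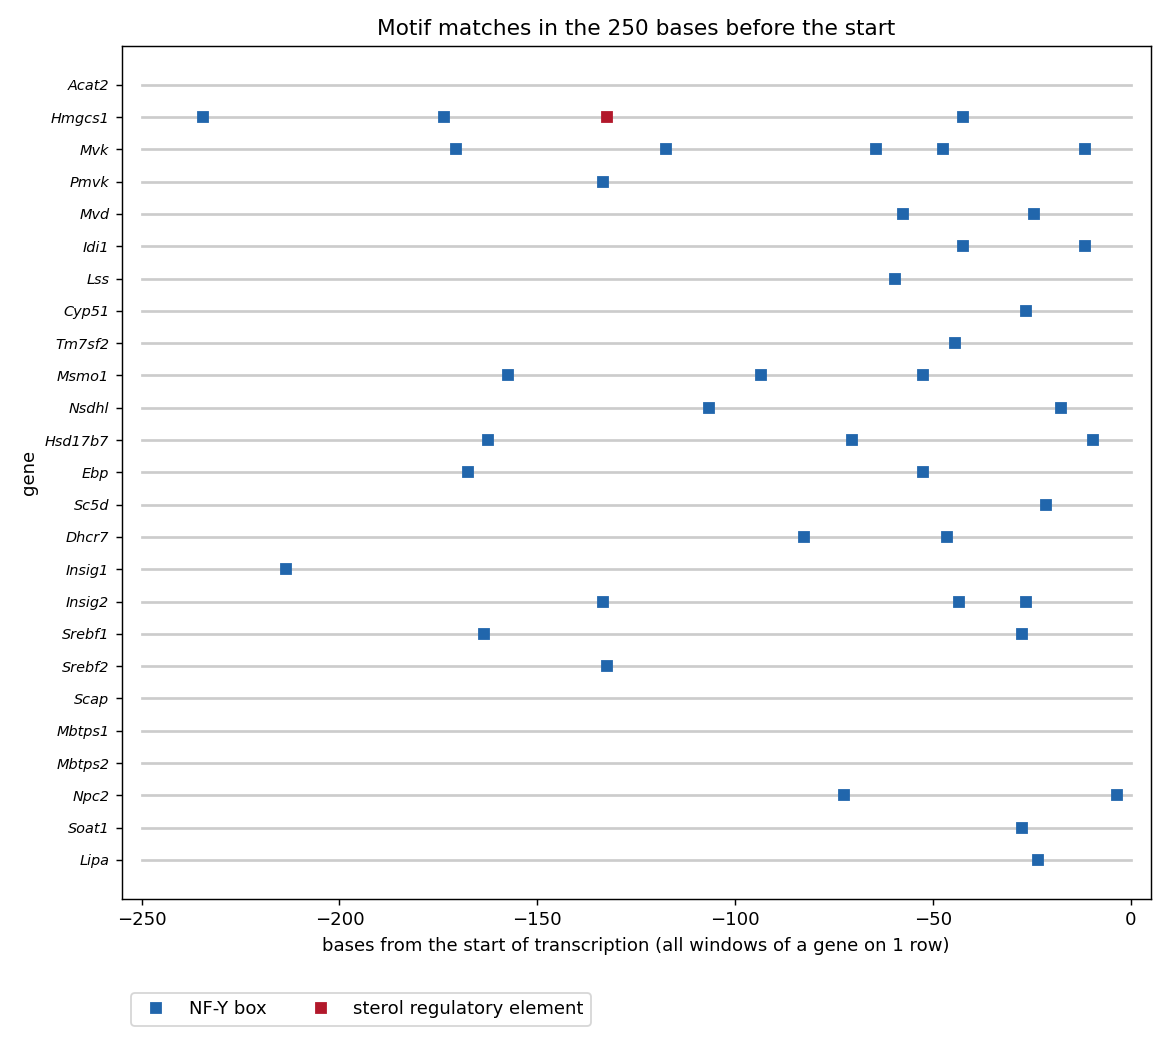
Motif matches in the 250 bases before the start of transcription, by gene (y axis) and distance from the start in bases (x axis), with all windows of a gene drawn on 1 row. Blue squares are CCAAT boxes on either strand, present in 21 of 25 genes, and the red square is the sterol regulatory element match in Hmgcs1.

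Reads came from the 3′ ends of messenger RNA, and values are log2 CPM (reads scaled to the library's total) as deposited. Depth, estimated from the steps between low values, was about 3.56 to 3.75 M reads on listed genes with LPS + BMS, 1.84 to 3.21 M with LPS and 3.21 to 5.05 M untreated. LPS replicate 1 was the shallowest library and stood apart from the other LPS libraries, at -63.1 on the second principal component of all tested genes against 1.31 and -5.48. It was the lowest LPS library for 17 of the 32 members (53.1%), against 36.9% of all tested genes. The other groups had such a library too. LPS + BMS replicate 1 was the lowest of its group for 18 members (56.2%, against 33.6% of all tested genes). Untreated replicate 1, the deepest library, was the lowest of its group for 15 (46.9%, against 35.8%). All 8 macrophage markers looked for were listed, with summed levels of 4750 to 4830 CPM with LPS + BMS, 3990 to 4870 with LPS and 8010 to 8680 untreated. Of 26 markers of other cell types 8 were listed, and no erythroid marker was. S100a8 and S100a9 were the only neutrophil markers listed. They summed to 172 to 264 CPM with LPS + BMS, 33.9 to 60.9 with LPS and 7.81 to 29.6 untreated. Mean S100a8 was 7.75 log2 CPM with LPS + BMS, 5.46 with LPS and 3.30 untreated. S100a9 did not share this order, with means of 0.87, 0.39 and 0.82. Of the dendritic cell markers only Itgax was listed (4.77 to 5.36 CPM with LPS + BMS, 13.5 to 22.5 with LPS, 3.04 to 4.19 untreated), and of the mast cell markers only Hdc (60.5 to 77.2 CPM with LPS + BMS, 106 to 118 with LPS, 2.21 to 2.59 untreated). Summed stromal and lymphocyte markers did not exceed 15.3 and 7.53 CPM in any library. The part of these markers in the results below was not tested. Tnf, an early target of LPS, was higher by 6.16 log2 units (SE 0.22) in LPS than in untreated libraries. Acly, which encodes the inhibitor's target enzyme, was at 5.05, 5.24 and 4.91 log2 CPM with LPS + BMS, at 5.08, 5.18 and 5.22 with LPS and at 5.37, 5.43 and 5.42 untreated, and it passed no test.

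With LPS most genes for uptake, transport and storage of cholesterol fell, while synthesis genes changed in either direction or did not pass. Among all 32 members 10 fell and 4 rose (limma, adjusted p under 0.05), where 47% of all 12196 tested genes were called, 25.4% lower and 21.5% higher. The members' median log2 fold change was -0.05, against -0.06 over all tested genes. Its sign depended on single libraries: without untreated replicate 3 it was 0.15 with 19 of 32 above 0, without LPS replicate 2 it was 0.03, without LPS replicate 1 it was -0.02 and without untreated replicate 1 it was -0.12. The counts differed by role, without a test between roles. In uptake, transport and storage 5 of 6 fell and none rose, with a median of -1.34. In the mevalonate steps 3 rose and 1 fell of 8 (median 0.10), in the squalene to cholesterol steps 3 fell and none rose of 11 (median -0.09), and in SREBP control 1 rose and 1 fell of 7 (median 0.49). In bulk RNA, fewer cells of a type and less RNA per cell cannot be told apart.

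**Figure D2:**
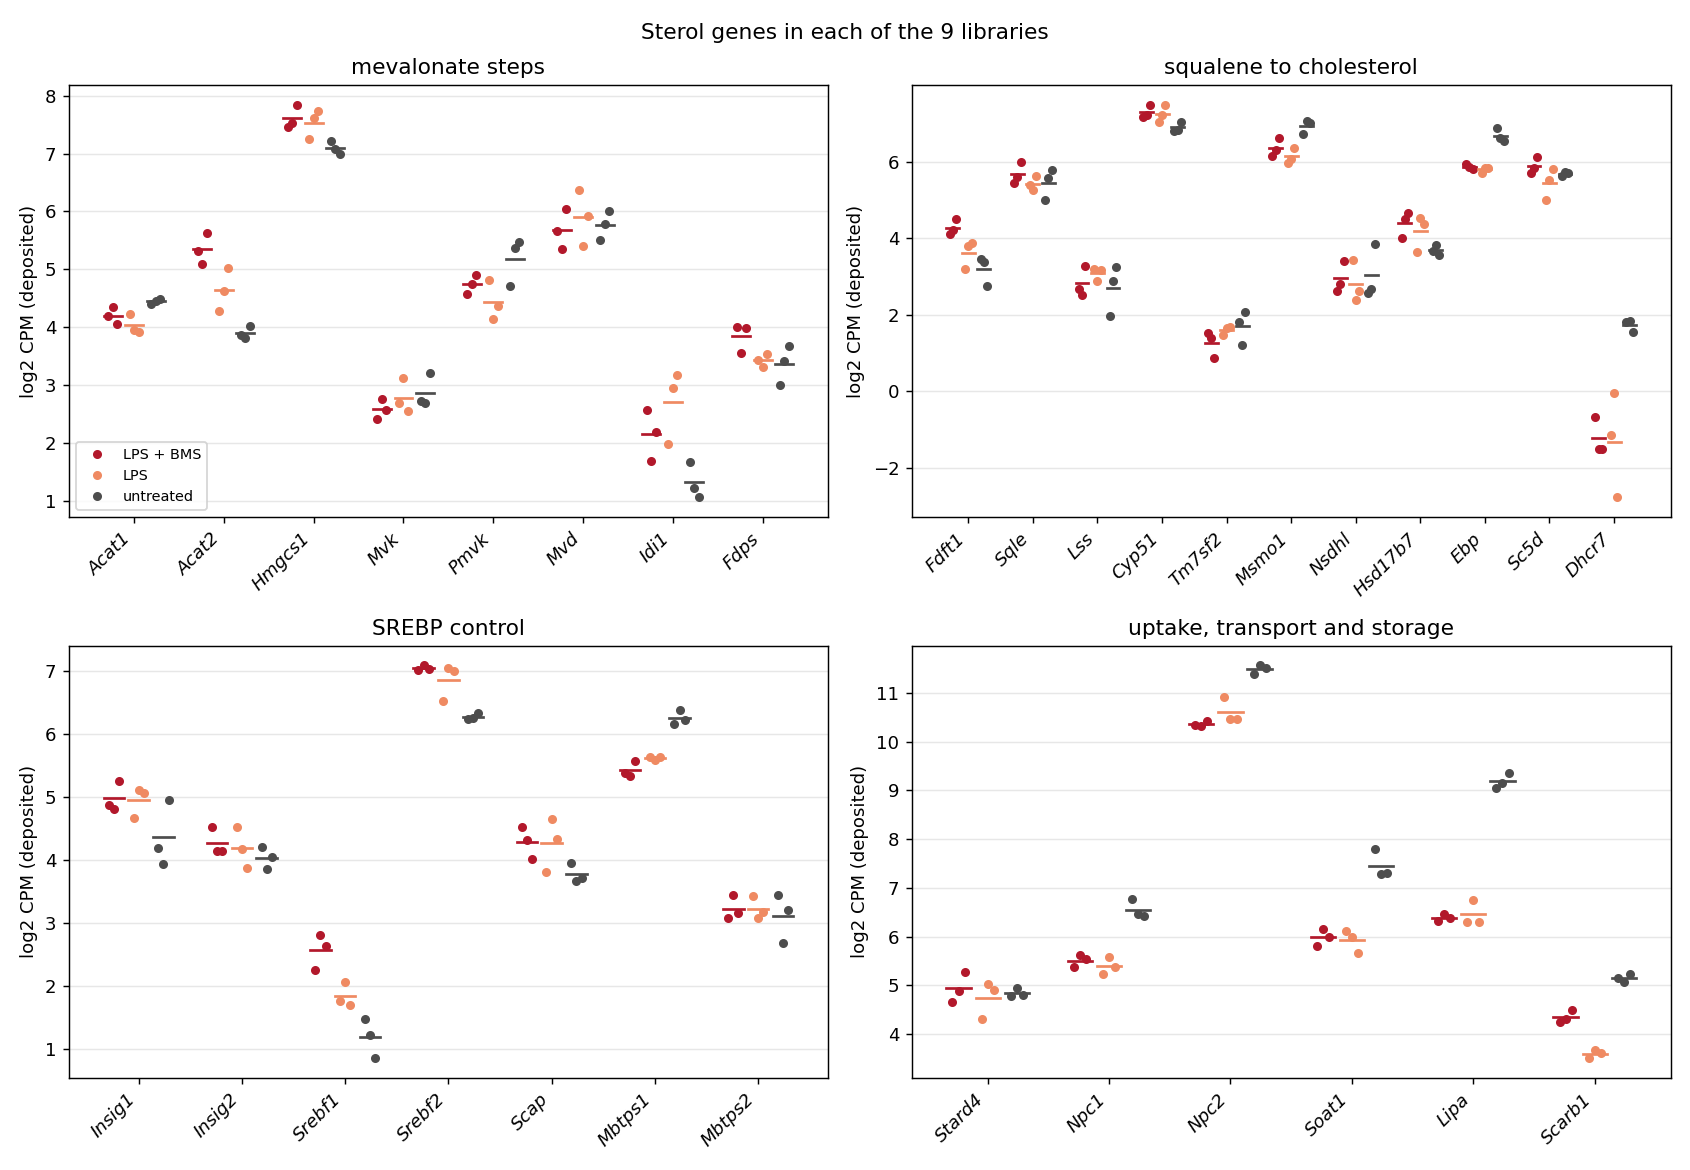
Deposited log2 CPM (y axis) of the 32 genes (x axis) in every library, in 4 panels by role. Points are libraries coloured by group, with LPS + BMS left, LPS in the middle and untreated right, and bars are means of 3 libraries. Lipa lies between 6.30 and 6.75 with LPS and between 9.05 and 9.35 untreated.

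Lipa (chr19:34492318-34527474, minus strand, GRCm38) encodes lysosomal acid lipase, which frees cholesterol from the esters of internalised lipoproteins, and had the steepest fall among the members with more than a few reads in every library. It stood at 6.30, 6.75 and 6.31 log2 CPM with LPS and at 9.05, 9.15 and 9.35 untreated. The groups did not overlap, with a fold change of -2.73 on the log2 scale (SE 0.14, adjusted p = 2.19e-09, limma), a 6.63-fold lower level. NPC2 binds the freed cholesterol in the lysosome and passes it to the membrane protein NPC1. Npc2 was at 10.91, 10.46 and 10.46 log2 CPM with LPS and at 11.38, 11.56 and 11.51 untreated, a change of -0.88 (SE 0.12, adjusted p = 5.52e-05, limma). Npc1 was at 5.23, 5.59 and 5.38 log2 CPM with LPS and at 6.77, 6.46 and 6.42 untreated, a change of -1.15 (SE 0.15, adjusted p = 2.39e-05, limma). In each of these genes every LPS library lay below every untreated library, as was the case, in either direction, for 52.6% of all tested genes.

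Soat1 encodes the enzyme that esterifies cholesterol for storage in lipid droplets. It was at 6.11, 5.99 and 5.67 log2 CPM with LPS and at 7.79, 7.28 and 7.30 untreated, a change of -1.53 (SE 0.17, adjusted p = 5.54e-06, limma). Scarb1 (chr5:125277087-125341094, minus strand) encodes SR-BI, a receptor that exchanges cholesterol with high-density lipoprotein. It was at 3.51, 3.68 and 3.61 log2 CPM with LPS and at 5.15, 5.08 and 5.24 untreated, a change of -1.55 (SE 0.16, adjusted p = 2.66e-06, limma). Neither pair of groups overlapped. Stard4, for a protein that carries cholesterol between membranes, was the member of this role that did not pass, with a difference of -0.09 (95% interval -0.54 to 0.36). The 5 falls passed the test in all 19 alternative fits each. Over the same libraries 6 of the 8 macrophage markers fell, among them Mertk by 4.14 and Cd68 by 1.35 on the log2 scale. Cd14 rose, at 1.80 (SE 0.30, adjusted p = 0.000270, limma), and Adgre1 was at 0.07 (95% interval -0.20 to 0.34). The part of this shift in the falls above was not tested.

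In the mevalonate steps the rises were of Acat2, Hmgcs1 and Idi1. Acat2 encodes the cytosolic thiolase that joins the first pair of acetyl-CoA units, and it was at 4.27, 4.62 and 5.02 log2 CPM with LPS and at 3.87, 3.82 and 4.02 untreated. The groups did not overlap, with a change of 0.74 (SE 0.20, adjusted p = 0.00938, limma). Without LPS replicate 3 it was 0.54 and was not called (adjusted p = 0.0530, limma). Acat1, its mitochondrial counterpart, works mainly in ketone body and isoleucine breakdown and was at 4.23, 3.95 and 3.91 log2 CPM with LPS and at 4.40, 4.46 and 4.49 untreated. Its difference of -0.42 did not pass (adjusted p = 0.0575, limma), though without LPS replicate 1 it did (-0.52, adjusted p = 0.0248, limma). The thiolase pair thus lay on opposite sides of 0, with intervals of 0.30 to 1.18 for Acat2 and -0.78 to -0.05 for Acat1.

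Hmgcs1 encodes HMG-CoA synthase of the cytosol. It was at 7.26, 7.61 and 7.73 log2 CPM with LPS and at 7.22, 7.07 and 6.99 untreated, a change of 0.44 (SE 0.14, adjusted p = 0.0228, limma) with LPS replicate 1 just above the highest untreated library. Removing LPS replicate 2 or 3, or untreated replicate 2 or 3, ended the call (largest adjusted p 0.108, limma). Hmgcs1 was also not called in the fit without a mean trend (adjusted p = 0.0736, limma). Idi1 encodes the isomerase of the isoprenoid units and was at 1.98, 2.94 and 3.18 log2 CPM with LPS and at 1.67, 1.22 and 1.06 untreated. Its change of 1.38 (SE 0.38, adjusted p = 0.00861, limma) passed in every alternative fit in which it was tested, but it rests on values 6 to 27 steps above each library's lowest value, each step being about 1 read. Pmvk, for phosphomevalonate kinase, was at 4.81, 4.14 and 4.36 log2 CPM with LPS and at 4.70, 5.37 and 5.47 untreated. These groups overlapped, and the fall of -0.74 (SE 0.22, adjusted p = 0.0150, limma) was lost when LPS replicate 2, untreated replicate 2 or untreated replicate 3 was removed (largest adjusted p 0.0672, limma). It was also not called after centring on ribosomal protein genes. Mvk, Mvd and Fdps, for mevalonate kinase, mevalonate diphosphate decarboxylase and farnesyl diphosphate synthase, lay between -0.09 and 0.13 and passed no test.

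Among the later enzymes Msmo1, Ebp and Dhcr7 fell. Msmo1 encodes the sterol-C4-methyl oxidase and was at 5.97, 6.07 and 6.35 log2 CPM with LPS and at 6.71, 7.05 and 7.01 untreated, a change of -0.79 (SE 0.15, adjusted p = 0.000896, limma). Ebp encodes a sterol isomerase and was at 5.70, 5.84 and 5.84 log2 CPM with LPS and at 6.87, 6.62 and 6.54 untreated, a change of -0.88 (SE 0.13, adjusted p = 6.40e-05, limma). Both kept every LPS library below every untreated library. Dhcr7, for the reductase that makes cholesterol from 7-dehydrocholesterol, was at -1.13, -0.04 and -2.77 log2 CPM with LPS and at 1.82, 1.83 and 1.56 untreated. Its LPS values were the lowest of the library in replicates 1 and 3 and 2 steps above it in replicate 2, against 10 to 19 steps untreated, so the direction passed the test (adjusted p = 0.00439, limma) while the fitted size of -3.05 (SE 0.75) depends on how values without reads are set.

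The other 8 enzymes of these steps did not pass with LPS, and their differences ran from -0.24 for Sc5d to 0.49 for Hsd17b7. Cyp51, the lanosterol demethylase, lay at the threshold. It was at 7.02, 7.22 and 7.47 log2 CPM with LPS and at 6.81, 6.83 and 7.02 untreated, a difference of 0.35 (SE 0.14, adjusted p = 0.0502, limma). LPS replicate 1 was the lowest LPS library here, as in 10 of the 19 synthesis genes. Without that library 9 members rose and 11 fell, the added rises being Cyp51 (0.46), Fdft1 (0.64), which encodes squalene synthase, Hsd17b7 (0.76), Insig1 (0.73) and Scap (0.72), and the added fall Acat1. Over all tested genes 2762 rose and 3278 fell without it, against 2628 and 3102 with it. Without LPS replicate 3, by contrast, 2 members rose and 10 fell. Calls over all tested genes were also fewer in that fit, with 2271 that rose and 2719 that fell.

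In the control of SREBP, Srebf2 rose and Mbtps1 fell with LPS. Srebf2 encodes SREBP2, the form that drives sterol genes, and was at 6.54, 7.06 and 7.00 log2 CPM with LPS and at 6.25, 6.26 and 6.33 untreated. The groups did not overlap, with a change of 0.58 (SE 0.14, adjusted p = 0.00326, limma). Its paralog Srebf1, whose products favour fatty acid genes, was at 1.75, 2.07 and 1.69 log2 CPM with LPS and at 1.48, 1.22 and 0.85 untreated, a difference of 0.66 that did not pass (SE 0.32, adjusted p = 0.112, limma) and rests on 5 to 15 steps. Mbtps1, for the Golgi protease that makes the earlier of the SREBP cuts, was at 5.64, 5.59 and 5.63 log2 CPM with LPS and at 6.17, 6.38 and 6.22 untreated, a change of -0.64 (SE 0.13, adjusted p = 0.00103, limma). Mbtps2, for the protease of the later cut, was at 0.11 (95% interval -0.42 to 0.64).

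The INSIG pair and Scap did not pass with LPS. Insig1, itself a target of SREBP, was at 4.67, 5.12 and 5.07 log2 CPM with LPS and at 4.19, 3.94 and 4.95 untreated, with untreated replicate 3 inside the LPS range. Its difference was 0.59 (SE 0.24, adjusted p = 0.0586, limma). Insig2 was at 4.53, 4.17 and 3.88 log2 CPM with LPS and at 4.21, 3.85 and 4.05 untreated, groups that overlapped throughout (0.15, 95% interval -0.29 to 0.60). Scap, the escort protein, was at 0.49 (SE 0.23, adjusted p = 0.0908, limma).

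Of the 32 sterol genes 1 was called when LPS + BMS was set against LPS, the receptor gene Scarb1. Scarb1 was at 4.26, 4.30 and 4.49 log2 CPM with LPS + BMS and at 3.51, 3.68 and 3.61 with LPS, a change of 0.75 (SE 0.16, 1.68-fold, adjusted p = 0.0236, limma). The groups did not overlap, and the level remained under the untreated libraries at 5.08 to 5.24. This single call compares with 2.12% of all tested genes called in either direction, 0.959% higher and 1.16% lower. It ended without LPS replicate 3 or any 1 of the LPS + BMS libraries, where the change was 0.68 to 0.80 and the adjusted p reached 0.135 (limma). It also ended after centring on ribosomal protein genes and when untreated libraries were left out of the fit. At an unadjusted p under 0.05 the counts were 5 of 32 members and 1820 of all 12196 genes.

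Among members that did not pass, the libraries did not overlap in Acat2, Fdft1, Fdps, Srebf1, Mbtps1 and Npc2; with Scarb1 that makes 7 of 32, where 21.4% of all tested genes had no overlap. Acat2 was at 5.32, 5.09 and 5.62 log2 CPM with LPS + BMS, above the 4.27 to 5.02 of LPS libraries. Its difference of 0.71 had an interval of 0.27 to 1.15 (adjusted p = 0.104, limma). Fdft1 was at 4.10, 4.21 and 4.51 log2 CPM with LPS + BMS and at 3.18, 3.79 and 3.88 with LPS, beside 3.45, 3.37 and 2.75 untreated, and its difference between LPS + BMS and LPS was 0.66 (0.11 to 1.20, adjusted p = 0.240, limma). Srebf1 was at 2.25, 2.81 and 2.63 log2 CPM with LPS + BMS, against 1.69 to 2.07 with LPS, a difference of 0.73 (0.03 to 1.42, adjusted p = 0.312, limma). Fdps, Mbtps1 and Npc2 were at 0.41, -0.19 and -0.24.

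The members' median difference for BMS was 0.09, with 24 of 32 above 0, against 0.00 over all tested genes. Without LPS replicate 1 it was 0.03 with 19 of 32 above 0, and without LPS + BMS replicate 1 it was 0.15 with 21 above 0. In the 19 synthesis genes it was 0.13 with 14 above 0, and without LPS + BMS replicate 3 it was 0.09 with 11 above 0. After centring each library on ribosomal protein genes the members' median was 0.00 with 16 of 32 above 0, and that of all tested genes was -0.09. Several genes at the start of the pathway and in its control lay close to 0. Hmgcs1 was at 7.46, 7.53 and 7.85 log2 CPM with LPS + BMS, a difference of 0.08 (95% interval -0.23 to 0.39). Insig1 was at 4.88, 4.81 and 5.25 log2 CPM with LPS + BMS, a difference of 0.03 (-0.49 to 0.55). In both genes these libraries overlapped those with LPS. Insig2 was at 4.52, 4.15 and 4.14 log2 CPM in those libraries (0.08, -0.37 to 0.52). Srebf2 was at 7.03, 7.10 and 7.04 log2 CPM there, a difference of 0.19 (-0.10 to 0.48), and Acat1 at 4.18, 4.34 and 4.05, a difference of 0.16 (-0.20 to 0.52). For 25 of the 32 members the 95% interval of this comparison lay within 1 log2 unit of 0, so that a change of 2-fold or more lay outside it. For the other 7, Scarb1 and Acat2 among them, a change of that size was not outside the interval.

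**Figure D3:**
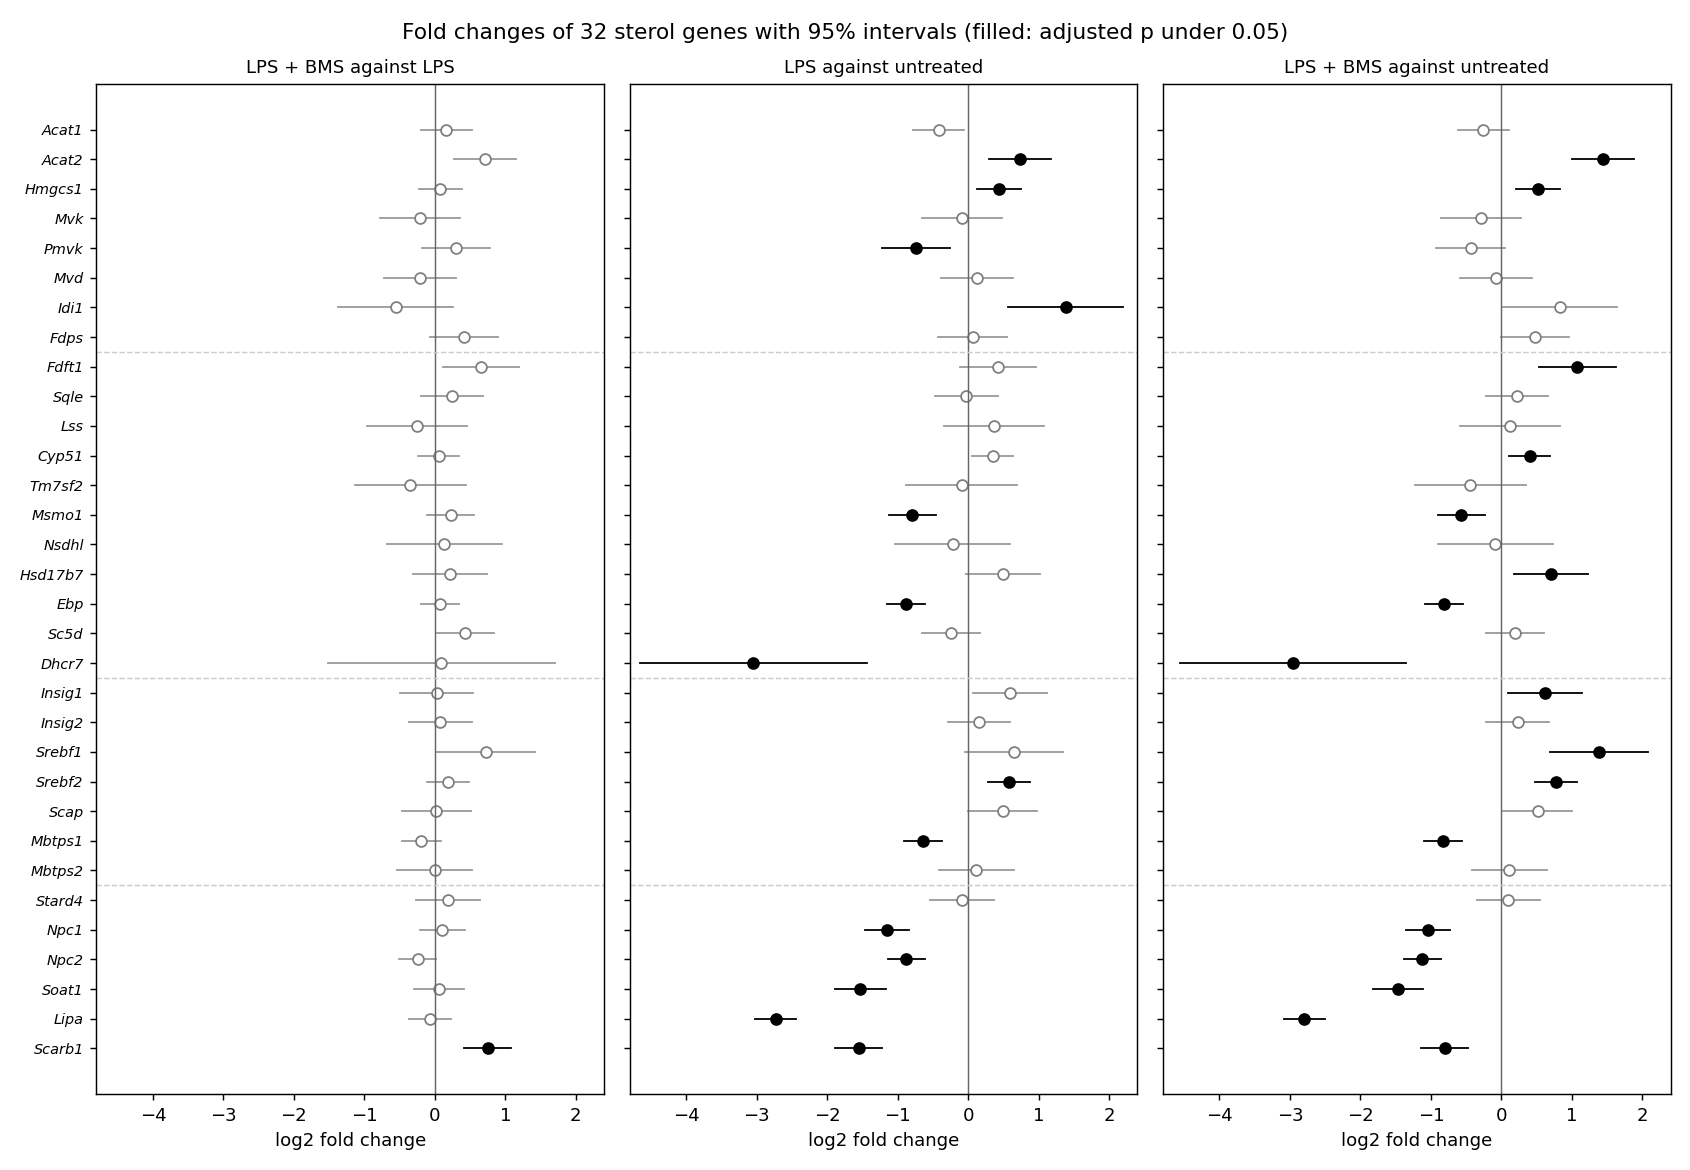
Log2 fold changes (x axis) of the 32 genes (y axis) in the 3 comparisons, with 95% intervals from the limma fit and dashed lines between roles. Filled points passed at an adjusted p under 0.05, which were 1 gene for LPS + BMS against LPS, 14 for LPS against untreated and 17 for LPS + BMS against untreated.

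Against untreated macrophages, LPS + BMS cells had 8 members higher and 9 lower (limma), where 47.1% of all tested genes were called, 21.5% higher and 25.6% lower. This comparison shares its untreated libraries with that of LPS alone, and its first group shares the LPS treatment, so the comparisons are not independent. Acat2 was at 1.45 (SE 0.20, adjusted p = 6.54e-05, limma) here and at 0.74 in the comparison of LPS alone. Srebf2 was at 0.77 here and at 0.58 there, and Hmgcs1 at 0.52 and 0.44. The 5 genes called here and not for LPS alone were Fdft1 (1.08 here, 0.42 there), Srebf1 (1.38 and 0.66), Hsd17b7 (0.71 and 0.49), Insig1 (0.62 and 0.59) and Cyp51 (0.40 and 0.35). The direct comparison of LPS + BMS with LPS called none of these 5. Insig1 lay on either side of the threshold, with adjusted p of 0.0490 here and 0.0586 there (limma), and its groups overlapped here. Its call was also lost after median centring, after ribosomal protein centring and without a mean trend. When each of the 9 libraries was left out in turn, calls were lost 7 times for Insig1, 3 times for Cyp51 and 4 times for Hsd17b7, with adjusted p up to 0.210, 0.126 and 0.116 (limma), and that of Hmgcs1 ended without LPS + BMS replicate 3 (adjusted p = 0.0540, limma). Without LPS + BMS replicate 3, 4 members were higher and 9 lower. Over all tested genes 2271 were higher and 2777 lower in that fit, against 2627 and 3120 with all libraries.

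Hsd17b7, for a keto-reductase of the demethylation steps, was at 4.02, 4.51 and 4.65 log2 CPM with LPS + BMS, at 3.65, 4.52 and 4.36 with LPS and at 3.67, 3.82 and 3.56 untreated. Cyp51 was at 7.16, 7.22 and 7.49 log2 CPM with LPS + BMS. In each gene the LPS + BMS libraries all lay above the untreated ones, while LPS replicate 1 lay inside or at the edge of the untreated range. The groups did not overlap for 19 of the 32 members, against 59.4% of all tested genes. Lower members were the 9 lower with LPS other than Pmvk, and 8 of these 9 did not pass between LPS + BMS and LPS. Lipa was at 6.33, 6.46 and 6.38 log2 CPM with LPS + BMS, and the interval of its difference from LPS was -0.36 to 0.23. Soat1 was at 5.81, 6.17 and 5.99 log2 CPM there (-0.30 to 0.42), Npc1 at 5.37, 5.62 and 5.54 (-0.20 to 0.42) and Npc2 at 10.35, 10.32 and 10.42 (-0.51 to 0.02). These 4 genes thus lay below every untreated library with the inhibitor as well. Pmvk, at 4.58, 4.75 and 4.90 log2 CPM, lay at -0.44 from untreated and did not pass (adjusted p = 0.126, limma). Msmo1 was at 6.15, 6.30 and 6.62 log2 CPM, Ebp at 5.93, 5.85 and 5.81 and Mbtps1 at 5.38, 5.33 and 5.58, and Dhcr7 at -0.66, -1.50 and -1.50 was 1 or 2 steps above the lowest value. Idi1 was at 2.56, 1.69 and 2.18 log2 CPM, between the means of LPS and untreated libraries, and passed neither test of these libraries.

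Within each group some libraries were high or low in many synthesis genes. LPS + BMS replicate 3 was the highest of its group in 12 of the 19 synthesis genes (63.2%), against 34.8% of all tested genes, and their median lay 0.23 log2 units above their group means. LPS replicate 3 was the highest of its group in 11 of the 19 (57.9%), against 24.9% of all tested genes. Untreated replicate 3 was the highest in 11 as well, against 38.7%. Replicate 1 was the lowest of its group in 10 of the 19 (52.6%) with LPS + BMS, with LPS and untreated alike. Over all tested genes these shares were 33.6%, 36.9% and 35.8%. The replicate numbers are not known to pair the libraries, and these counts are a description without a test.

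**Figure D4:**
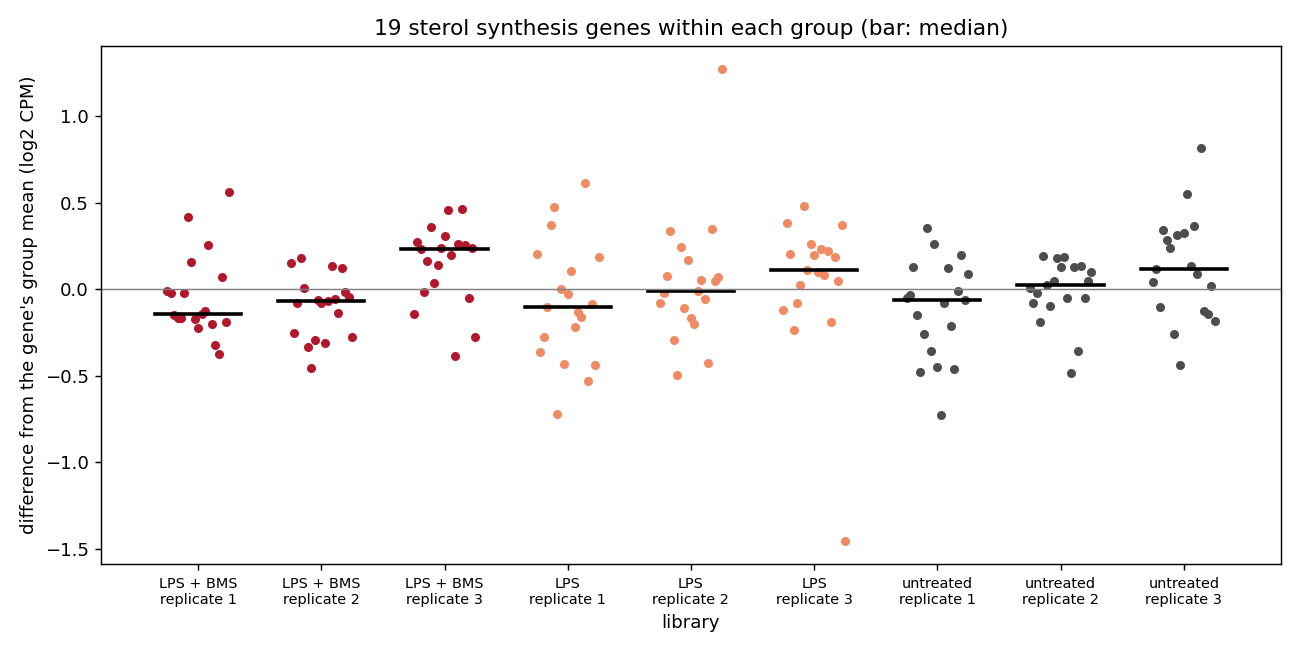
Difference of each of the 19 synthesis genes from its own group mean (y axis, log2 CPM) in each library (x axis), with a bar at the median. LPS + BMS replicate 3 has the highest median, at 0.23. LPS + BMS replicate 1 has the lowest, at -0.14, and LPS replicate 1 has a median of -0.10.

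Reads from overlapping genes could bear on 4 members whose 3′ ends lie against a listed gene on the opposite strand. No source used here gives the strand setting of the counting, so the deposited values do not show whether such reads were kept apart. The part of such reads in the results was not tested. The last 500 bases of Fdft1 lie wholly within exons of Ctsb, which encodes cathepsin B and was at 9.96 to 10.18 log2 CPM with LPS + BMS, 9.92 to 10.16 with LPS and 10.91 to 11.21 untreated. Mean Fdft1 was 4.27 log2 CPM with LPS + BMS, 3.62 with LPS and 3.19 untreated. Smaller stretches of the last 500 bases were shared by Cyp51 with Akap9 (166 bases), Npc1 with Rmc1 (192 bases) and Srebf1 with Rai1 (109 bases). Akap9 was at 6.82 to 6.98 log2 CPM with LPS + BMS, 6.59 to 6.78 with LPS and 7.32 to 7.51 untreated. In the same order Rmc1 was at 1.66 to 2.02, 0.77 to 1.52 and 0.85 to 1.69. Rai1 was at 2.41 to 2.63, 2.48 to 2.91 and 2.37 to 2.95. Fdps shares 197 of its last 500 bases with Gm43738, an unlisted gene on the same strand.

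Other genes of the pathway were counted as lists, to be read against the 47% of all tested genes called for LPS against untreated and the 2.12% called for LPS + BMS against LPS. Of 13 further genes of sterol synthesis and uptake with a row, 4 rose and 4 fell with LPS, against 21.5% of all tested genes called higher and 25.4% called lower. Among the rises were Gramd1a (2.56, SE 0.13) and Gramd1b (0.65, SE 0.16), which encode carriers of cholesterol from the plasma membrane. Among the falls were Nceh1 (-3.44, SE 0.17), a neutral cholesteryl ester hydrolase, and Lrp1 (-1.93, SE 0.10), a large lipoprotein receptor. With BMS 1 of the 13 was called against LPS, Gramd1b at -0.87 (SE 0.16, adjusted p = 0.0112, limma).

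The branch from the mevalonate pathway to isoprenoids had no call among 9 genes with LPS (47% of all tested genes) or with BMS against LPS (2.12%). At an unadjusted p under 0.05 each of these comparisons counted 1 of the 9. Of 9 genes for sterol-regulated protein turnover in the endoplasmic reticulum, 3 rose and 1 fell with LPS, with Rnf145, a ubiquitin ligase, at 1.20 (SE 0.19) and Aup1 at -0.49 (SE 0.15), and none was called for BMS against LPS, where 2 had an unadjusted p under 0.05. Of 7 genes of sterol efflux and LXR 2 rose and 3 fell with LPS, where 21.5% and 25.4% of all tested genes did. Among them Ch25h, the cholesterol 25-hydroxylase, was at 2.91, 2.30 and 1.82 log2 CPM with LPS and at -1.97, -2.77 and -2.33 untreated, at or near the lowest value of each untreated library, so no fold is given. With BMS 1 of the 7 was called against LPS, the cholesterol exporter Abca1. It was at 7.85, 7.74 and 8.10 log2 CPM with LPS + BMS and at 7.52, 6.78 and 7.10 with LPS, a change of 0.76 (SE 0.17, adjusted p = 0.0344, limma). Of 9 genes of fatty acid synthesis and acetyl-CoA supply 2 fell with LPS, Scd2 (-2.93, SE 0.38) and Fads1 (-2.31, SE 0.26), which encode fatty acid desaturases. None was called for BMS against LPS, where 2 had an unadjusted p under 0.05. There Scd2 was at 3.18, 2.81 and 3.78 log2 CPM with LPS + BMS and at 0.77, 2.30 and 2.07 with LPS, a difference of 1.54 (95% interval 0.71 to 2.37, adjusted p = 0.0578, limma). Both Scd2 changes rest on few reads with LPS, about 3.14, 14.7 and 13.5 in the 3 libraries.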

How the data were processed

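Libraries were QuantSeq 3′ forward, made from 100 ng of oligo dT-primed total RNA with 16 PCR cycles, per the labels' protocols. The tools in the submitters' processing notes are edgeR, limma, MultiQC, featureCounts 1.5.1 and STAR 2.5.2b, with build GRCm38 (mm10) and no roles; annotation, strand setting and gene filter were not given in the sources used here. What the authors deposited is a score per gene and library, identified from its values as quantile-normalised log2 CPM (powers of 2 sum to 987472 to 987498 in each library). Depths were estimated from value steps 5 to 40, with the lowest value taken as 0 reads, and are approximate. A change shared by most genes cannot be seen.

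Of 12204 IDs 12181 matched a symbol. Genes at or above 0 log2 CPM in at least 3 libraries were tested (12196). A model with 1 mean per group over all 9 libraries was fitted with limma 3.58.1 (R 4.3.3, mean trend, two-sided, Benjamini-Hochberg over all tested genes). It was also run on data simulated for LPS + BMS against LPS. There it recovered 11.9% of 1.5-fold, 43.3% of 2-fold and 81.8% of 4-fold changes, with 5 false calls among 11996 unchanged genes. A member not called in that comparison can therefore still have changed. The count test was not used, since no counts were analysed here. SE and 95% intervals are those of the fit. Members and lists were chosen with earlier results of these data known. Values per library are given for members called in any comparison and for the pairs Insig1/Insig2, Acat1/Acat2 and Srebf1/Srebf2. Other lists have at most 4 named genes each. Some further sterol genes are counted in their list but not reported here by name, and Gramd1b was named after its values were seen.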

Additional observations from a re-analysis of the deposited data

How the results depend on the processing

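In 20 fits per result (the main 1 and 19 alternatives, 9 of which leave out a library), no called member changed direction. Of the 14 members called for LPS against untreated 11 passed in every alternative in which they were tested, and of the 17 for LPS + BMS against untreated 13 did. The Scarb1 call for LPS + BMS against LPS was the only member call of that comparison. It gave 0 called members after centring on ribosomal protein genes and 0 in a fit of only the groups compared, and 0 to 1 in fits that left out 1 library. The count of all genes called there was 258 and depended on the variance model and the libraries. It was 162 after ribosomal protein centring (53 higher and 109 lower, 32.7% higher against 45.3%), 99 without a mean trend, 814 with weights per library and 62 to 318 in fits that left out 1 library. With the replicate number as a block, 1, 16 and 17 members were called in the comparisons of LPS + BMS with LPS, LPS with untreated and LPS + BMS with untreated, against 1, 14 and 17 without it, and over all genes 208, 5531 and 5558. Correlations of deviations from group means ran from -0.297 to 0.165 for libraries of the same number. For different numbers they ran from -0.215 to 0.294. With 3 libraries per group these values cannot decide whether the numbers pair the libraries. The filter of 10 CPM left out 6 members. The cause of these shifts was not tested. Depth limits Dhcr7, Idi1, Srebf1 and Tm7sf2, which had fewer than 10 steps in at least 1 library.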
